A study of Mus musculus with 8 samples.

Results

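The genes described here are 6 forkhead transcription factors, 3 of the FOXO family (Foxo1, Foxo3 and Foxo4) and 3 of the FOXP family (Foxp1, Foxp3 and Foxp4), picked by symbol from the 39179 gene IDs that each library lists. All 6 were found, and 5 had values above 0. They were followed across 8 RNA sequencing libraries of C57BL/6 mouse bone marrow cells. The 4 cCLP libraries came from common lymphoid progenitors (CLPs, marrow precursors of B, T and natural killer cells) grown for 2 months on OP9, a mouse stromal line, with Flt3L and a low amount of IL-7. The 4 ex vivo CLP libraries came from CLPs sorted directly from marrow. Both groups passed 1 gate, in which cells were Lin-, IL7R+, Flk2+, CD27+ and Ly6d-. The labels name no animal, culture or sequencing batch, so all p-values measure only the spread between these libraries, which may be technical.

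FOXO and FOXP proteins bind DNA through a forkhead domain. FOXO factors are active in the nucleus when signalling through PI3K and AKT is low. When AKT phosphorylates them, they are bound by 14-3-3 proteins and kept in the cytoplasm, so their activity can change with no change in their RNA. In mice, Foxo1 is needed for normal expression of Il7r and the Rag genes in early B lineage cells. FOXP factors mostly act as repressors and bind one another through a leucine zipper. Foxp1 is needed for early B cell development in mice, and Foxp3 is the defining factor of regulatory T cells.

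The deposited values are whole numbers on a score scale that is not raw reads, so the depth behind them is unknown. They were divided by a library factor and are called scaled values below. Whether they were corrected for gene length is not given in the sources used here, so levels are compared between libraries and not between genes. The library labelled ex vivo CLP 2 lay closer to cCLP 2 to 4 (Spearman's rho across genes of 0.981 to 0.989) than to ex vivo CLP 1, 3 and 4 (0.870 to 0.898). The library labelled cCLP 1 lay closer to ex vivo CLP 1, 3 and 4 (0.973 to 0.985) than to cCLP 2 to 4 (0.891 to 0.895). Each comparison is therefore given over all 8 libraries as labelled and again over 6, cCLP 2 to 4 against ex vivo CLP 1, 3 and 4. Whether the labels of these libraries were exchanged was not tested. No library was moved to the other group, and p-values over 6 libraries hold only given that choice. In these bulk samples, fewer cells of a type and less RNA per cell cannot be told apart. The gate genes Flt3 and Cd27 were present in both groups, with Flt3 at 275 ± 4.45 in cCLP 2 to 4 and 227 ± 26.1 in ex vivo CLP 1, 3 and 4 (SD, n = 3 each). Il7r, whose product the gate also required, was less even. It averaged 212 ± 15.9 in cCLP 2 to 4 and 36.2 ± 32.5 in ex vivo CLP 1, 3 and 4 (SD, n = 3 each). Ly6d, whose product the sort selected against, averaged 0.952 ± 0.112 in cCLP 2 to 4 and 32.9 ± 3.17 in ex vivo CLP 1, 3 and 4 (SD, n = 3 each).

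Among the FOXO genes, Foxo1 was the one with the widest spread between libraries. Foxo1 (ENSMUSG00000044167, chr3:52268336-52353221, plus strand, GRCm38) had scaled values of 1.90, 8.50, 5.73 and 6.71 in cCLP 1 to 4 and 1.21, 10.1, 1.27 and 2.87 in ex vivo CLP 1 to 4. The high libraries were cCLP 2 to 4 and ex vivo CLP 2, and the labelled groups overlapped. Over 8 libraries Foxo1 averaged 5.71 ± 2.79 in cCLP and 3.86 ± 4.23 in ex vivo CLP (SD, n = 4 each), a log2 difference of 0.68 (exact two-sided permutation test, p = 0.371). Over 6 libraries it averaged 6.98 ± 1.41 in cCLP 2 to 4 and 1.78 ± 0.942 in ex vivo CLP 1, 3 and 4 (SD, n = 3 each), which is 3.92-fold higher. Those groups did not overlap, as was so for 55.9% of the 6622 genes that passed the filter given below, a set without Foxo1. The exact two-sided permutation test gave p = 0.1, the smallest p that 3 against 3 allows. The deposited values behind this are low, at 8, 6 and 8 in cCLP 2 to 4 and 1, 1 and 4 in ex vivo CLP 1, 3 and 4. For that reason Foxo1 missed the filter, which asks for a scaled value of 10 or more in at least 4 of the 8 libraries, or 3 of the 6.

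With no filter on low values, all genes above 0 can be fitted together in limma. In that fit over 6 libraries, Foxo1 rose in cCLP by 1.56 on the log2 scale (SE 0.25, 95% interval 0.98 to 2.13, Benjamini-Hochberg adjusted p = 0.00222, higher in 3 of 3 libraries). In the same fit 16.3% of 13755 genes were called higher in cCLP and 20.2% were called lower, so a call is common there. Over 8 libraries the unfiltered fit gave an interval of -0.63 to 1.99 for Foxo1 and an adjusted p of 0.59. With a pseudocount of 5 in place of 1, the log2 difference of Foxo1 over 6 libraries was 0.82.

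Foxo3, a broadly expressed family member that acts in stem cell quiescence and the response to oxidative stress, was much more even. Foxo3 (ENSMUSG00000048756, chr10:42181841-42276755, minus strand) had scaled values of 18.05, 18.07, 17.2 and 15.9 in cCLP 1 to 4 and 15.7, 13.5, 12.7 and 17.2 in ex vivo CLP 1 to 4. Its lowest library was ex vivo CLP 3 and the groups overlapped. It averaged 17.3 ± 1.01 in cCLP and 14.8 ± 2.07 in ex vivo CLP (SD, n = 4 each), a log2 difference of 0.22 (SE 0.11, 95% interval -0.04 to 0.49, limma adjusted p = 0.482). Over 6 libraries the difference was 0.16 (SE 0.13, 95% interval -0.13 to 0.46, limma adjusted p = 0.334). The libraries that set Foxo1 apart did not do so for Foxo3, since ex vivo CLP 2 had the next to lowest Foxo3 value and the next to highest was in cCLP 1.

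Foxo4, an X-linked member of the family, was also even. Foxo4 (ENSMUSG00000042903, chrX:101254528-101260873, plus strand) had scaled values of 10.45, 8.50, 9.56 and 7.55 in cCLP 1 to 4 and 8.46, 7.85, 7.62 and 10.05 in ex vivo CLP 1 to 4. The groups overlapped over nearly their whole range. Foxo4 did not pass the filter. The log2 difference was 0.07 over 8 libraries (exact permutation test, p = 0.543, unfiltered 95% interval -0.24 to 0.39). It was -0.02 over 6 libraries (exact permutation test, p = 0.8, unfiltered 95% interval -0.34 to 0.30), and its sign turned with upper quartile or library total scaling. The remaining FOXO gene, Foxo6, was listed at 0 in all 8 libraries.

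**Figure D1:**
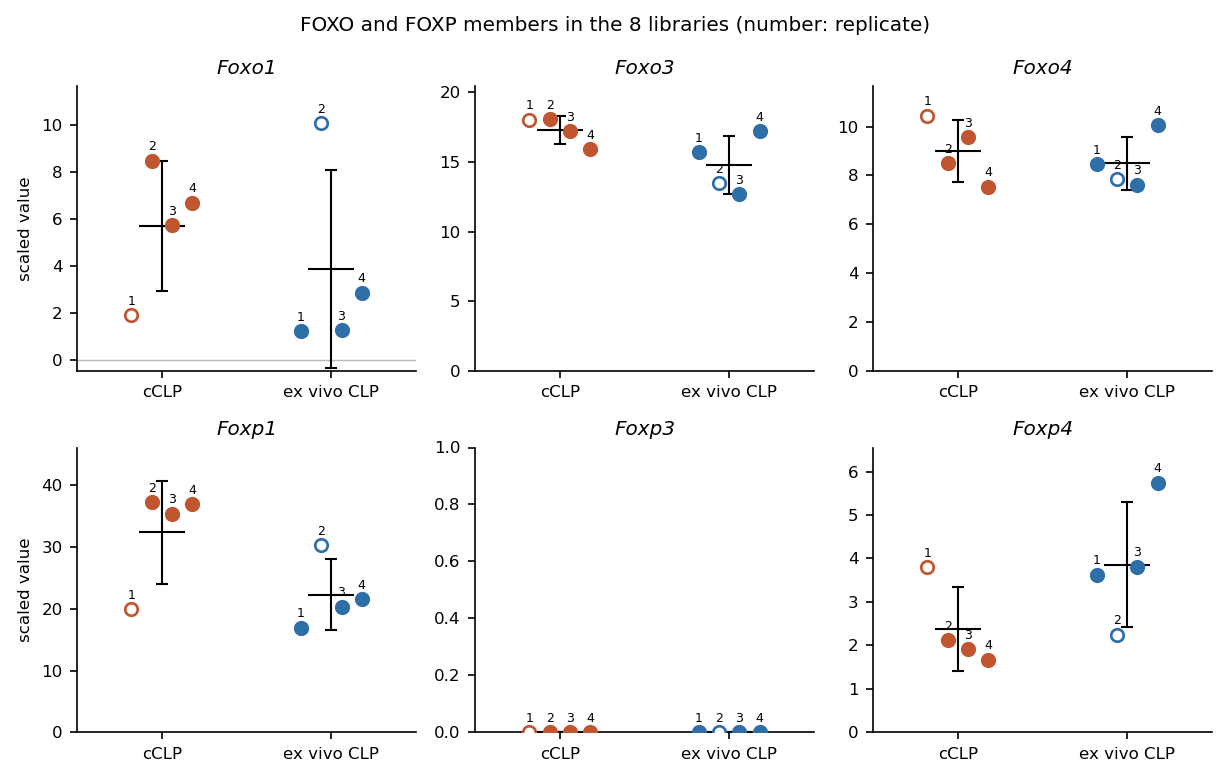
Scaled value (deposited value divided by the library factor, y axes from 0 or just below) of each of the 6 genes in every library, with cCLP left of ex vivo CLP, numbers giving the replicate and bars the mean ± SD (n = 4 each). Open symbols are cCLP 1 and ex vivo CLP 2, which lie with the other group for Foxo1, Foxp1 and Foxp4, while Foxo3 and Foxo4 overlap between groups and Foxp3 is at 0 throughout.

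Foxp1 was the member with a call in the filtered comparison over 6 libraries. Foxp1 (ENSMUSG00000030067, chr6:98925338-99522721, minus strand) had scaled values of 19.95, 37.2, 35.4 and 36.9 in cCLP 1 to 4 and 16.9, 30.3, 20.3 and 21.5 in ex vivo CLP 1 to 4. The 4 high libraries were cCLP 2 to 4 and ex vivo CLP 2, as for Foxo1. Over 8 libraries it averaged 32.4 ± 8.31 in cCLP and 22.3 ± 5.70 in ex vivo CLP (SD, n = 4 each), a log2 difference of 0.51 (SE 0.24, 95% interval -0.04 to 1.06, limma adjusted p = 0.482). In that comparison 0 of 6580 genes (0%) were called in either direction, while 510 had an unadjusted p below 0.05, and 487 did without the trend and robust options. Over 6 libraries Foxp1 rose to 36.5 ± 0.987 in cCLP 2 to 4, against 19.6 ± 2.39 in ex vivo CLP 1, 3 and 4 (SD, n = 3 each). The ratio of these means was 1.86. On the log2 scale, with 1 added to each scaled value, the difference was 0.87 (SE 0.11, 95% interval 0.62 to 1.12, limma adjusted p = 0.000505, higher in 3 of 3 libraries). Of 6622 genes tested over 6 libraries, 20.7% were called higher in cCLP and 22.4% lower, and for 55.9% the groups did not overlap, so this pattern is shared with a large part of the genes tested.

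Foxp4, a close relative that can pair with Foxp1, lay the other way. Foxp4 (ENSMUSG00000023991, chr17:47867133-47924645, minus strand) had scaled values of 3.80, 2.13, 1.91 and 1.68 in cCLP 1 to 4 and 3.63, 2.24, 3.81 and 5.74 in ex vivo CLP 1 to 4. The lowest 4 libraries were cCLP 2 to 4 and ex vivo CLP 2. Over 8 libraries it averaged 2.38 ± 0.965 in cCLP and 3.86 ± 1.44 in ex vivo CLP (SD, n = 4 each), a log2 difference of -0.51 (exact permutation test, p = 0.0857). Over 6 libraries it averaged 1.90 ± 0.225 in cCLP 2 to 4 and 4.39 ± 1.17 in ex vivo CLP 1, 3 and 4 (SD, n = 3 each), with p = 0.1 by the exact permutation test, again the smallest possible. In the unfiltered limma fit over 6 libraries Foxp4 fell in cCLP by 0.87 on the log2 scale (SE 0.19, 95% interval -1.31 to -0.44, adjusted p = 0.00748, lower in 3 of 3 libraries). Its deposited value was 2 in each of cCLP 2 to 4, so the spread there comes from the library factors alone and a single unit in the file is a large step. With a pseudocount of 5 the log2 difference was -0.44.

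Foxp3 (ENSMUSG00000039521, chrX:7573644-7595245, plus strand) was listed at 0 in all 8 libraries, as was Foxp2, the remaining FOXP gene. Of 8 regulatory T cell markers, Il2ra and Ikzf4 were also at 0 in all 8 libraries and none passed the filter. Their summed scaled values were 13.8 to 19.95 in cCLP and 16.8 to 26.7 in ex vivo CLP, and over 6 libraries 13.8 to 16.3 in cCLP 2 to 4 and 22.3 to 26.7 in ex vivo CLP 1, 3 and 4. Of 10 T cell markers, Cd3e, Cd8a and Bcl11b were at 0 in all 8 libraries, and the summed values were 0.838 to 7.60 in cCLP and 1.12 to 10.2 in ex vivo CLP. On the opposite strand, exons of Foxp3 overlap Ccdc22, which had scaled values of 1.91 to 3.81, and Ppp1r3f, which reached 1.06. On the strand of Foxp3 they overlap Flicr, which was at 0 in every library. How reads shared between genes were counted is not given in the sources used here. Foxp1 shares exons with Gm20696 and Foxo1 with the antisense gene Gm20402, both at 0 in every library.

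**Figure D2:**
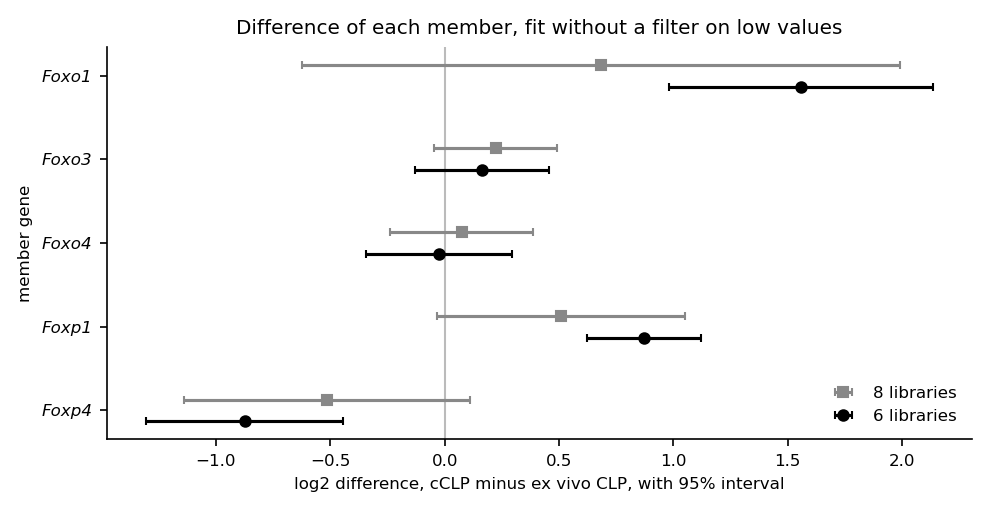
Log2 difference (x axis, cCLP minus ex vivo CLP, on log2 of scaled value + 1) of each member with a value above 0 (y axis), from the limma fit with no filter on low values. Black circles are the 6 libraries and grey squares all 8, with 95% intervals. Over 6 libraries the intervals of Foxo1 (0.98 to 2.13), Foxp1 and Foxp4 (-1.31 to -0.44) leave out 0, while over 8 libraries all 5 intervals hold 0. Over 6 libraries so did the intervals of 6215 of the 13755 genes fitted leave out 0 (unadjusted limma p below 0.05). The sign of Foxo4 over 6 libraries turns with the scaling.

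The promoters of Foxo1 and Foxp1 are shown because both genes rose over 6 libraries and both encode proteins that bind forkhead core letters. RefSeq (GRCm38.p6) gave 8 promoter windows, each the 250 bases before a transcription start, for 5 of the 6 members (not Foxo4). They were searched for the forkhead core TGTTT and its reverse complement AAACA, which is how the other strand reads. Foxp1 is a long gene with several starts, and the window is printed for each of its 3 RefSeq starts. The sequences below run 5′ to 3′ on the strand of the gene, and capitals mark TGTTT or AAACA.
Foxo1, chr3:52268087-52268336, plus strand: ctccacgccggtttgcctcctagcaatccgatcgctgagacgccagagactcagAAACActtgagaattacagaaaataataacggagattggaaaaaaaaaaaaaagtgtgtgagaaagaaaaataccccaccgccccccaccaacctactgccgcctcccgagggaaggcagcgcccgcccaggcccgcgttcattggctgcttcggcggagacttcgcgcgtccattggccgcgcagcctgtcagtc
Foxp1 start 1, chr6:99520994-99521243, minus strand: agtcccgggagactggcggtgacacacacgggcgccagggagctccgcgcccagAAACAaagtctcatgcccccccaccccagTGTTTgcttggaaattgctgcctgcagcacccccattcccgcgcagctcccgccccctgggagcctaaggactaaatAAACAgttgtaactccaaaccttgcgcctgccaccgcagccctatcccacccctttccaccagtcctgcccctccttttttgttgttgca
Foxp1 start 2, chr6:99266516-99266765, minus strand: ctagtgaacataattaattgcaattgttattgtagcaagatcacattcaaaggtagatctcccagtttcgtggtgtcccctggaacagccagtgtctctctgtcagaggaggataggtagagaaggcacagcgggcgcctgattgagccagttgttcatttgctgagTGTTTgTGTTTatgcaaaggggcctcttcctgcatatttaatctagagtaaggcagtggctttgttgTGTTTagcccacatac
Foxp1 start 3, chr6:99028299-99028548, minus strand: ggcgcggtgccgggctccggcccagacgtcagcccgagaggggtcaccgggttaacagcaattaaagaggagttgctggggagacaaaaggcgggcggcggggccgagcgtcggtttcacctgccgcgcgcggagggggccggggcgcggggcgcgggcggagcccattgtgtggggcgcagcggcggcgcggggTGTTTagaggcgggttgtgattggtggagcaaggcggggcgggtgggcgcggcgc

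The Foxo1 window held 1 match, which begins 196 bases before the start. The first Foxp1 window held 3 matches, at 196, 167 and 90 bases before the start, and the second held 3, at 83, 77 and 16 bases. The first 2 of those lie side by side with 1 base between them. The third Foxp1 window held 1 match, at 55 bases. The 2 windows of Foxp3 held 2 matches and 1 match. The windows of Foxo3 and Foxp4 held 0 matches. Of all 32851 RefSeq windows of this length, 46.4% hold at least 1 match and 6.77% hold 3 or more. The longer forkhead letters TGTTTAC or GTAAACA, which contain the core, are in 3.17% of all windows and in 0 of the 8 member windows. Such matches describe letters only and do not show that a factor binds there. The Foxo3 window had a GC content of 76.4% and that of Foxo1 56.0%.

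The genes whose profile over the 8 libraries was most like that of each tested member were found by the root mean square (RMS) difference of centred log2 profiles. For Foxp1 these were Unc119, a lipid-binding trafficking protein, at 0.075, Phkb, a regulatory subunit of phosphorylase kinase, at 0.081 and Atp6v1b2, a subunit of the vacuolar proton pump, at 0.091. The median over all genes tested was 0.456. Unc119 had scaled values of 10.45, 17.0, 17.2 and 17.6 in cCLP 1 to 4 and 8.46, 15.7, 10.2 and 11.5 in ex vivo CLP 1 to 4, which places ex vivo CLP 2 beside cCLP 2 to 4 as Foxp1 does. For Foxo3 the nearest were Mepce, which caps the small nuclear RNA 7SK, at 0.036, Unc119b, a relative of Unc119, at 0.042 and Mtr, methionine synthase, at 0.043, against a median of 0.295. Foxo3 varied little (a log2 range of 0.48 over 8 libraries, against 1.09 for Foxp1), and its near neighbours are genes that vary as little.

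Of 38 other forkhead genes in the files, 29 were at 0 in all 8 libraries, and 3 passed the filter. Foxk2, a repressor of autophagy genes in muscle cells of mice, averaged 16.7 ± 0.686 in cCLP 2 to 4 and 17.1 ± 1.62 in ex vivo CLP 1, 3 and 4 (SD, n = 3 each, limma adjusted p = 0.845). Foxn2 averaged 9.80 ± 0.736 in cCLP 2 to 4 and 10.3 ± 1.87 in ex vivo CLP 1, 3 and 4 (SD, n = 3 each, limma adjusted p = 0.802). Foxm1, which drives genes of the cell division phase, fell to 7.23 ± 0.467 in cCLP 2 to 4, against 13.6 ± 3.27 in ex vivo CLP 1, 3 and 4 (SD, n = 3 each, log2 difference -0.81, limma adjusted p = 0.00629). Foxm1 stayed below 10 in cCLP 2 to 4 and passed the filter only through ex vivo CLP, so its direction was fixed. Over 8 libraries its log2 difference was -0.33 (limma adjusted p = 0.592).

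The enzymes that set FOXO phosphorylation, with their subunits, adaptors and regulators, were taken as a list of 24 genes, of which 18 passed the filter. Over 6 libraries 6 rose (33.3%) and 2 fell (11.1%), against 20.7% higher and 22.4% lower over all genes tested. The median log2 difference was 0.070, where that of all genes tested was -0.0013. Over 8 libraries 0 were called. The largest rises were in Inpp5d (SHIP1), a phosphatase that removes the lipid product of PI3K, Pik3ap1 (BCAP), which couples surface receptors to PI3K, and Pik3cg, a PI3K catalytic subunit. Inpp5d had scaled values of 70.3, 131.8, 134.75 and 137.5 in cCLP 1 to 4 and 74.9, 114.5, 68.6 and 70.3 in ex vivo CLP 1 to 4. Over 6 libraries its log2 difference was 0.91 (SE 0.09, limma adjusted p = 0.000123). These 3 largest rises thus included genes that build the PI3K signal and Inpp5d, which removes it. Pik3ip1, named after its values were seen, counts among the rises both here and in the later list of FOXO targets outside the lymphoid programme.

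Pik3ap1 averaged 43.5 ± 4.66 in cCLP 2 to 4 and 25.0 ± 6.91 in ex vivo CLP 1, 3 and 4 (SD, n = 3 each, log2 difference 0.80, limma adjusted p = 0.00925). Pik3cg averaged 36.8 ± 0.451 in cCLP 2 to 4 and 23.6 ± 0.664 in ex vivo CLP 1, 3 and 4 (SD, n = 3 each, log2 difference 0.62, limma adjusted p = 0.000709). Sgk3, a kinase related to AKT that can phosphorylate FOXO proteins, had the largest difference of the list. Its scaled values were 38.0, 2.13, 2.87 and 1.68 in cCLP 1 to 4 and 39.9, 2.24, 44.4 and 37.3 in ex vivo CLP 1 to 4. Over 6 libraries it fell by 3.70 on the log2 scale (SE 0.16, limma adjusted p = 1.46e-06), a direction fixed by the filter. Mapkap1 (SIN1), a subunit of the kinase complex mTORC2 that phosphorylates AKT, fell to 15.1 ± 0.204 in cCLP 2 to 4, against 22.2 ± 1.99 in ex vivo CLP 1, 3 and 4 (SD, n = 3 each, log2 difference -0.52, limma adjusted p = 0.00382). Akt1, the kinase that gives the pathway its name and a gene named after its values were seen, averaged 62.4 in cCLP 2 to 4 and 69.4 in ex vivo CLP 1, 3 and 4 (log2 difference -0.15, SE 0.10, limma adjusted p = 0.284).

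Of 17 anchors and modifiers of FOXO proteins (14-3-3 proteins, the exporter Xpo1, acetylases, deacetylases and ubiquitin enzymes), 12 passed the filter. Over 6 libraries 0 rose and 3 fell (25.0%), against 20.7% higher and 22.4% lower over all genes tested. The median log2 difference was 0.0058, and over 8 libraries 0 were called. The largest fall was in Sirt1, a deacetylase that acts on FOXO proteins. Sirt1 fell to 10.05 ± 0.473 in cCLP 2 to 4, against 16.0 ± 1.65 in ex vivo CLP 1, 3 and 4 (SD, n = 3 each, log2 difference -0.62, limma adjusted p = 0.00298). The 3 falls lay near the share of lower calls over all genes.

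Genes that FOXO factors, mainly Foxo1, are known to bind or need in lymphocytes of mice formed a list of 12, of which 8 passed the filter. Over 6 libraries all 8 were called, 4 higher and 4 lower (50% each), against 20.7% higher and 22.4% lower over all genes tested. Their median log2 difference of -0.02 falls between these sides, and none of the 8 genes lies near it. For Rag1, Klf2 and Blnk the direction was fixed by the filter, since they stayed below 10 in every library of 1 group. Among the 5 genes above 10 in at least 1 library of both groups, 3 rose and 2 fell. The shares over all genes under that limit were not counted. Over 8 libraries 0 were called, and the median was -0.07. The listed targets thus lay in both directions.

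The 4 higher genes were the recombinase genes Rag1 and Rag2, the IL-7 receptor gene Il7r and Il6st, the shared receptor chain of the IL-6 family. Rag1 had scaled values of 2.85, 293, 269 and 328 in cCLP 1 to 4 and 8.46, 396, 1.27 and 1.44 in ex vivo CLP 1 to 4. Rag2 had 7.60, 76.5, 75.5 and 87.2 in cCLP 1 to 4 and 20.5, 98.7, 5.08 and 3.59 in ex vivo CLP 1 to 4. Il7r had 26.6, 226, 195 and 215 in cCLP 1 to 4 and 73.7, 217, 17.8 and 17.2 in ex vivo CLP 1 to 4. In all 3 genes the high libraries were cCLP 2 to 4 and ex vivo CLP 2, the libraries in which Foxo1 and Foxp1 were also high, and ex vivo CLP 1 lay above the other low libraries. Over 6 libraries the groups did not overlap, in either direction, for 55.9% of the 6622 genes tested. A split of those 6 libraries is thus not particular to Foxo1 or its targets. How many genes also place ex vivo CLP 2 with cCLP 2 to 4 was not counted. The log2 differences over 6 libraries were 6.31 for Rag1 (SE 0.51, limma adjusted p = 7.26e-05), 3.26 for Rag2 (SE 0.52, limma adjusted p = 0.00219) and 2.85 for Il7r (SE 0.51, limma adjusted p = 0.00364). Il6st rose to 93.6 ± 6.67 in cCLP 2 to 4, against 26.1 ± 3.77 in ex vivo CLP 1, 3 and 4 (SD, n = 3 each, log2 difference 1.81, limma adjusted p = 1.62e-05).

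Of the 4 lower genes, Cxcr4 encodes the receptor that holds cells in marrow. It had scaled values of 103.55, 43.6, 52.6 and 46.95 in cCLP 1 to 4 and 123, 57.2, 218 and 193 in ex vivo CLP 1 to 4. The 4 lowest libraries were cCLP 2 to 4 and ex vivo CLP 2. Over 6 libraries Cxcr4 fell to 47.7 ± 4.54 in cCLP 2 to 4, against 178 ± 49.3 in ex vivo CLP 1, 3 and 4 (SD, n = 3 each, log2 difference -1.84, limma adjusted p = 0.000252). Gimap6, a GTPase of lymphocytes, fell to 37.5 ± 3.18 in cCLP 2 to 4, against 147.6 ± 24.3 in ex vivo CLP 1, 3 and 4 (SD, n = 3 each, log2 difference -1.94, limma adjusted p = 2.38e-05). All 12 genes of a list of myeloid and dendritic markers were called lower over 6 libraries, against 22.4% over all genes tested. For 11 of them the direction was fixed by the filter and is no result. The summed scaled values of that list were 275 to 301 in cCLP 2 to 4 and 1540 to 3379 in ex vivo CLP 1, 3 and 4, and 275 to 1899 in cCLP and 175 to 3379 in ex vivo CLP as labelled. Elane, Ctsg, Csf1r, Csf3r, S100a8 and S100a9 of that list were at 0 in cCLP 2 to 4 and ex vivo CLP 2, and above 0 in the other 4 libraries. Mpo, another gene of that list, was well above 0 throughout. Its scaled values were 260, 271 and 284 (cCLP 2 to 4) and 162 (ex vivo CLP 2), against 365 to 972 elsewhere. Mpo alone thus made up most of the low sums. The part of myeloid and dendritic cells in the results on Foxo1, Foxp1, Foxp4 and the target genes was not tested.

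Klf2, a factor that drives homing receptors in T cells, had scaled values of 26.6, 4.25, 7.65 and 5.03 in cCLP 1 to 4 and 14.5, 5.61, 72.4 and 99.0 in ex vivo CLP 1 to 4. It spread widely among the ex vivo CLP libraries. Over 6 libraries its log2 difference was -2.90 (SE 0.64, limma adjusted p = 0.00984), and the call was lost without cCLP 2 (limma adjusted p = 0.0554) and without ex vivo CLP 3 (limma adjusted p = 0.0555). Blnk, an adaptor of B cell receptor signalling, averaged 1.87 ± 0.917 in cCLP 2 to 4 and 15.3 ± 7.74 in ex vivo CLP 1, 3 and 4 (SD, n = 3 each, log2 difference -2.45, limma adjusted p = 0.000974). Its direction, like that of Klf2, was fixed by the filter.

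The other 4 lymphoid targets did not pass the filter, and their deposited values are given as listed. Ebf1, a B lineage factor, was at 1, 7, 6 and 9 in cCLP 1 to 4 and 1, 8, 0 and 0 in ex vivo CLP 1 to 4, with the same 4 high libraries as Foxo1. Over 6 libraries the groups did not overlap, in either direction, for 55.9% of the 6622 genes tested, a set without Ebf1. S1pr1, the receptor for exit from tissue, was at 6, 4, 5 and 6 in cCLP 1 to 4 and 2, 6, 13 and 25 in ex vivo CLP 1 to 4. Ccr7, a homing receptor, was at 5, 3, 3 and 4 in cCLP 1 to 4 and 8, 2, 2 and 5 in ex vivo CLP 1 to 4. Bach2, a repressor in B and T cells, was at 2 in every library but ex vivo CLP 4, where it was at 4. Of 7 B cell markers, 5 were above 0 and none passed the filter, with summed scaled values of 2.85 to 15.1 in cCLP and 3.63 to 32.5 in ex vivo CLP.

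**Figure D3:**
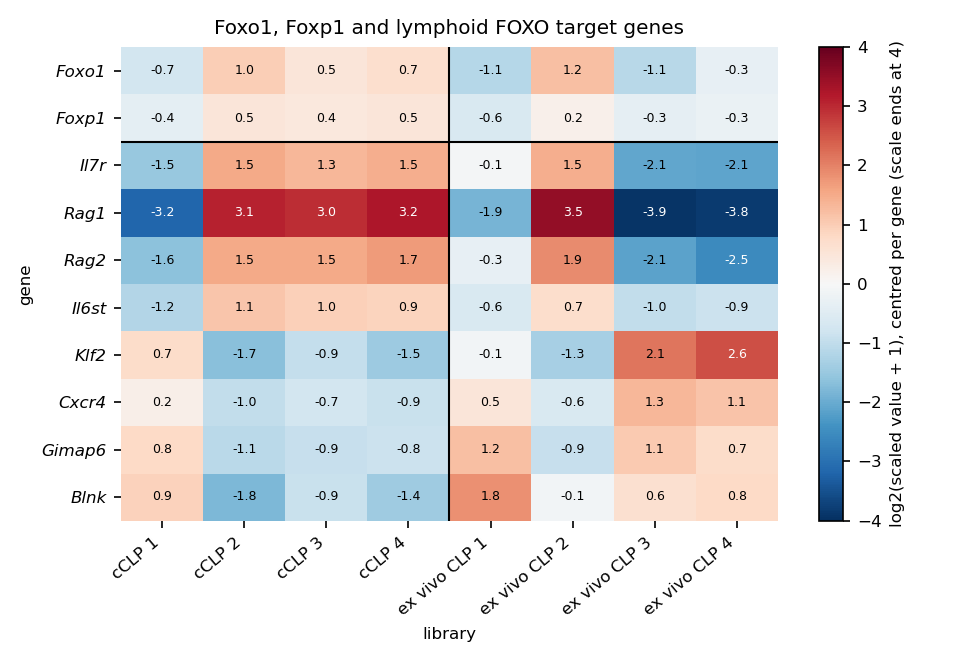
Log2(scaled value + 1) of Foxo1, Foxp1 and 8 lymphoid FOXO target genes (rows), each centred on its mean over the 8 libraries (columns, cCLP left of ex vivo CLP), on a colour scale that ends at 4 in each direction. The columns of cCLP 2 to 4 and ex vivo CLP 2 look alike, with Foxo1, Foxp1, Il7r, Rag1, Rag2 and Il6st above their means and the other genes below, Blnk in ex vivo CLP 2 by the least.

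FOXO targets outside the lymphoid programme (cell cycle inhibitors, stress and autophagy genes, metabolic genes) formed a list of 36, of which 23 passed the filter. Over 6 libraries 5 rose (21.7%) and 10 fell (43.5%), against 20.7% higher and 22.4% lower over all genes tested. The share of rises thus lay at that of all genes. The median log2 difference was -0.27, and 8 were not called. Of the 20 that were above 10 in at least 1 library of both groups, 5 rose and 7 fell. The shares over all genes under that limit were not counted, so these counts have no background to set beside them. Over 8 libraries 0 were called, and the median was -0.11. Sesn1, a stress-induced inhibitor of mTORC1 signalling, had scaled values of 43.7, 122, 119 and 126 in cCLP 1 to 4 and 61.6, 121, 33.0 and 34.4 in ex vivo CLP 1 to 4. It followed Foxo1 in which libraries were high, and over 6 libraries it rose by 1.55 on the log2 scale (SE 0.22, limma adjusted p = 0.000954). The groups did not overlap, in either direction, for 55.9% of the 6622 genes tested over 6 libraries. A split of those 6 libraries is thus common. The autophagy gene Atg12 rose to 79.5 ± 6.13 in cCLP 2 to 4, against 36.4 ± 4.03 in ex vivo CLP 1, 3 and 4 (SD, n = 3 each, log2 difference 1.11, limma adjusted p = 0.000154). Bnip3, which marks mitochondria for removal, rose to 32.8 ± 3.92 in cCLP 2 to 4, against 15.7 ± 2.07 in ex vivo CLP 1, 3 and 4 (SD, n = 3 each, log2 difference 1.02, limma adjusted p = 0.000543).

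The falls included cell cycle inhibitors. Cdkn2d, an inhibitor of the cyclin D kinases, fell to 10.2 ± 2.11 in cCLP 2 to 4, against 61.9 ± 21.7 in ex vivo CLP 1, 3 and 4 (SD, n = 3 each, log2 difference -2.44, limma adjusted p = 0.000285). Cdkn1b (p27), a classic FOXO target that was named after its values were seen, fell to 12.9 ± 0.422 in cCLP 2 to 4, against 31.3 ± 3.26 in ex vivo CLP 1, 3 and 4 (SD, n = 3 each, log2 difference -1.21, limma adjusted p = 6.37e-05). Gadd45b, a stress response gene, averaged 1.59 ± 1.11 in cCLP 2 to 4 and 44.7 ± 28.7 in ex vivo CLP 1, 3 and 4 (SD, n = 3 each, log2 difference -3.91, limma adjusted p = 0.00213), a direction fixed by the filter. Klf6, a zinc finger factor induced early by many stimuli, averaged 35.0 ± 4.59 in cCLP 2 to 4 and 171 ± 105 in ex vivo CLP 1, 3 and 4 (SD, n = 3 each, log2 difference -1.97, limma adjusted p = 0.0252). The Klf6 call was lost when any of cCLP 2, cCLP 3, cCLP 4, ex vivo CLP 3 or ex vivo CLP 4 was left out (limma adjusted p in that order of 0.0844, 0.0614, 0.0867, 0.108 and 0.0734).

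Partners of FOXP factors (the NuRD complex, histone deacetylases, CtBP proteins, NFAT and Runx proteins) formed a list of 21, of which 18 passed the filter. Over 6 libraries 3 rose (16.7%) and 4 fell (22.2%), with a median log2 difference of -0.06, close to the shares over all genes, and over 8 libraries 0 were called. Hdac1, a deacetylase of the NuRD complex, averaged 28.7 ± 5.64 in cCLP 2 to 4 and 19.0 ± 4.86 in ex vivo CLP 1, 3 and 4 (SD, n = 3 each, log2 difference 0.58, limma adjusted p = 0.0483). The Hdac1 call was lost when any of cCLP 2, cCLP 3, cCLP 4, ex vivo CLP 1 or ex vivo CLP 3 was left out (limma adjusted p in that order of 0.153, 0.0915, 0.0566, 0.0733 and 0.114). It was also lost with library total scaling (0.0868), no filter on low values (0.0565) and plain moderation (0.0543). Runx1, a blood factor that binds Foxp3 in regulatory T cells, averaged 8.22 ± 0.584 in cCLP 2 to 4 and 14.4 ± 2.46 in ex vivo CLP 1, 3 and 4 (SD, n = 3 each, log2 difference -0.73, limma adjusted p = 0.00397), a direction fixed by the filter.

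**Figure D4:**
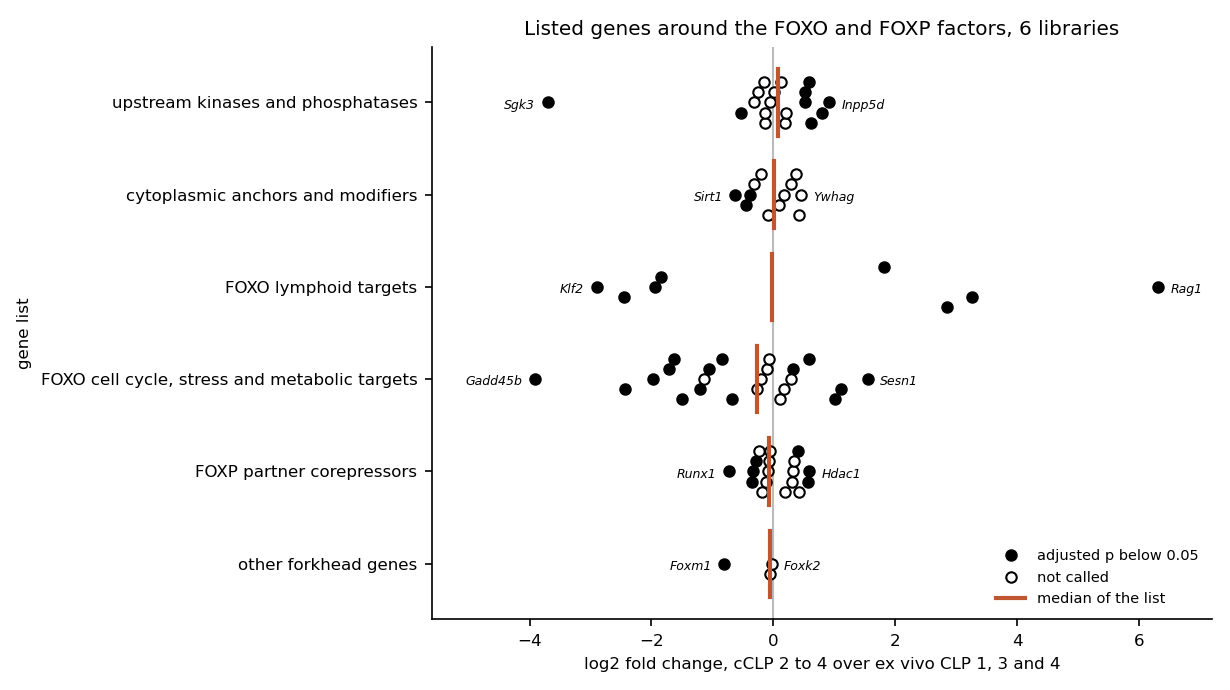
Log2 fold change of every tested gene of 6 lists (y axis) over the 6 libraries (x axis, cCLP 2 to 4 over ex vivo CLP 1, 3 and 4). Filled circles have a limma adjusted p below 0.05, open circles do not, and vertical bars are list medians. The lymphoid targets lie on both sides, from Klf2 at -2.90 to Rag1 at 6.31, both with a direction fixed by the filter. Among those whose direction was free, they run from Gimap6 at -1.94 to Rag2 at 3.26.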

How the data were processed

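RNA from sorted cells was sequenced after ribosomal depletion as paired 75 nt stranded reads, per the labels. TopHat2, Bowtie2, HTSeq 1.0.6 and GRCm38 (mm10) are named in the submitters' processing notes. Their roles and the annotation release are not given in the sources used here. The authors deposited a whole-number score per Ensembl gene ID. It is no raw read count: the dispersion index between cCLP 3 and 4 was 0.26 over 6793 genes and between ex vivo CLP 3 and 4 it was 0.458 over 6896 genes, below what counting error allows. Depth is therefore unknown, and no counting interval is given.

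Symbols came from GENCODE vM21 for 37607 of 39179 IDs. Scaled values are deposited values divided by a trimmed-mean factor per library (30% of ratios and 5% of levels trimmed at each end). Genes with a scaled value of at least 10 in 4 of the 8 libraries (3 of the 6) were tested on log2(scaled value + 1) in limma 3.58.1 (R 4.3.3, trend and robust options), with Benjamini-Hochberg adjustment over all genes tested and a threshold of 0.05. Fold changes are on that scale and understate changes of low genes. Members under the filter had an exact two-sided permutation test (smallest p 0.0286 for 4 against 4) and a fit with no filter. The scripts were tested on simulated data.

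The members, lists and tests were chosen with earlier results of these data known. Genes were named by this rule: the 6 members, Foxo6 and Foxp2, other forkhead genes tested, the largest calls up and down of each list (up to 3 for the upstream and target lists), the 3 nearest profiles per tested member, and lymphoid targets above 0. A few genes were taken out of the lists and are not reported here, so list counts and medians do not include them. Cell type markers described the libraries: the gate list, and the myeloid, T, regulatory T, B and stromal lists. Of the gate list 8 of 8 were tested. Over 6 libraries 2 were higher (25%) and 4 lower (50%), against 20.7% and 22.4% over all genes tested. The higher genes were Il7r and Rag1, and the lower ones Dntt, Kit, Ly6a and Ly6d. For Rag1, Ly6a and Ly6d the direction was fixed by the filter. The stromal list had 3 of 9 genes above 0 (Col1a1, Col1a2, Col3a1, Sparc, Pdgfra and Cxcl12 at 0), with sums of 3.82 to 14.2 in cCLP and 4.49 to 15.7 in ex vivo CLP. Alternatives were other scalings, pseudocounts of 0.5 and 5, other filters, plain moderation, a replicate block and leaving out each library.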

Additional observations from a re-analysis of the deposited data

Results flagged for a closer look

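The scaled value of Foxp1 in cCLP 1, at 19.95, lay far from those of cCLP 2 to 4 (37.2, 35.4 and 36.9) and close to those of ex vivo CLP 1, 3 and 4 (16.9, 20.3 and 21.5). The gap to the nearest cCLP library was 0.893 of the range of that group, above the Dixon critical value of 0.829 for 4 samples. Chance passes that value in about 1 in 20 groups. The library labelled cCLP 1 lies with ex vivo CLP 1, 3 and 4 across all genes, and the reason was not tested.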

How the results depend on the processing

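Foxp1 kept its direction and its call over 6 libraries under every alternative tried, with log2 differences of 0.76 to 0.93 (limma adjusted p 0.000258 to 0.000719) and 0.77 to 0.94 when 1 library was left out (0.000493 to 0.00417). Over 8 libraries 0 genes were called under any setting. With 1 library left out there, differences were 0.42 to 1.20 for Foxo1, 0.39 to 0.72 for Foxp1, 0.16 to 0.30 for Foxo3, 0.008 to 0.15 for Foxo4 and -0.70 to -0.34 for Foxp4. Over 6 libraries Foxo4 turned to 0.029 with upper quartile scaling and 0.015 with library total scaling, and ran from -0.11 to 0.073 with 1 library left out. With a pseudocount of 5, Foxo1 was 0.82 and Foxp4 -0.44, since the larger pseudocount shrinks low genes. With no filter, 2238 genes were called higher and 2785 lower, and Foxo1 (1.56, adjusted p = 0.00222) and Foxp4 (-0.87, adjusted p = 0.00748) were called. With a filter at 5, Foxo1 (1.56) had an adjusted p of 0.00172, with its direction fixed by the filter. Same-numbered libraries correlated at 0.594, 0.842, -0.574 and -0.857 after group means were removed. Those means hold cCLP 1 and ex vivo CLP 2, so this cannot show whether a number pairs libraries. With a replicate block Foxp1 was 0.51 over 8 libraries (adjusted p = 0.481) and 0.76 over 6 (adjusted p = 0.000356), with 1125 genes higher and 1304 lower, and no call of Foxp1, Foxo3 or a listed gene named in the report changed. Foxo1 and Foxp4 were not fitted with a block, and over 6 libraries the block rests on 2 pairs and 1 residual degree of freedom. With 1 of the 6 libraries left out, 919 to 1531 genes were higher and 1217 to 1825 lower. Low deposited values limit Foxo1, Foxo4 and Foxp4 most, where 1 unit is a large step.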

Other observations

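Some genes near the FOXO and FOXP factors had values outside the comparisons and were chosen after they were seen. Among regulatory T cell markers, Icos, a costimulatory receptor, was deposited at 2, 9, 12 and 14 in cCLP 1 to 4 and 4, 11, 2 and 2 in ex vivo CLP 1 to 4. Its 4 high libraries were those of Foxo1. Over 6 libraries the groups did not overlap, in either direction, for 55.9% of the 6622 genes tested, a set without Icos. Ikzf2 (Helios) was at 5, 0, 0 and 0 in cCLP 1 to 4 and 4, 0, 4 and 7 in ex vivo CLP 1 to 4. Tnfrsf18 (GITR) was at 11, 3, 4 and 3 in cCLP 1 to 4 and 9, 3, 10 and 12 in ex vivo CLP 1 to 4. Ctla4 was at 1, 0, 0 and 0 in cCLP 1 to 4 and 2, 0, 4 and 6 in ex vivo CLP 1 to 4. Tnfrsf4 was at 1 in every library but ex vivo CLP 3, where it was at 0. Over 6 libraries Icos thus lay higher in cCLP, while Ikzf2, Tnfrsf18, Ctla4 and Lrrc32 lay lower. Foxp3 was at 0 throughout.

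Foxf1, a forkhead factor of mesenchymal tissue, was at 0, 6, 6 and 9 in cCLP 1 to 4 and 0, 5, 0 and 0 in ex vivo CLP 1 to 4. It was above 0 in the 4 libraries in which Foxo1 and Foxp1 were high, and it did not pass the filter. Over 6 libraries the groups did not overlap, in either direction, for 55.9% of the 6622 genes tested, a set without Foxf1. Fbxo32, a FOXO target ubiquitin ligase of muscle wasting, was at 4, 8, 8 and 8 in cCLP 1 to 4 and 4, 6, 3 and 5 in ex vivo CLP 1 to 4.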
